A study of Rattus norvegicus with 30 samples.

Results

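The insulin and insulin-like growth factor (IGF) signalling core was followed as 10 genes, Insr, Igf1r, Igf1, Irs1, Irs2, Pik3r1, Akt1, Akt2, Foxo1 and Foxo3, chosen by symbol from the 17455 genes of a count table of rat dorsal hippocampus. All 10 had a row and all 10 were among the 12547 genes that passed the filter on low counts. The table holds 30 polyA RNA libraries from rats labelled alzheimer or wildtype, of either sex, fed a western diet or chow. Rats labelled alzheimer are TgF344-AD, a rat model of Alzheimer's disease in which the mouse prion promoter drives a mutated human APP transgene. The 8 groups were female_alzheimer_western (3 libraries), female_alzheimer_chow (4), female_wildtype_western (3), female_wildtype_chow (4), male_alzheimer_western (4), male_alzheimer_chow (4), male_wildtype_western (4) and male_wildtype_chow (4). The labels also name 2 cohorts, of 14 and 16 libraries. Age, the composition of the diets and the time on them are not stated in the labels. The labels do not say that each library came from a separate animal, so p-values measure the spread between these libraries. The diet comparison asks whether transcripts of the pathway differ in the hippocampus of rats on the western diet.

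Insulin and IGF1 bind related receptor tyrosine kinases, encoded by Insr and Igf1r, which recruit the adaptor proteins IRS1 and IRS2. The adaptors engage PI3-kinase, whose regulatory subunit p85 alpha is encoded by Pik3r1, and the lipid it makes leads to activation of the kinases AKT1 and AKT2. AKT phosphorylates the transcription factors FOXO1 and FOXO3 and keeps them out of the nucleus, and when the pathway is quiet they activate a set of target genes that includes Irs2 and Insr themselves. In the hippocampus the pathway is known for roles in neuronal survival, synaptic plasticity and energy metabolism. Most of its regulation is by phosphorylation, which RNA counts do not measure.

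The stretch of 250 bases before the annotated start is shown for Insr and Igf1, the 2 members in which a FOXO-type motif was found, and for Ddit4 and Pdk4, the pathway genes with the smallest p-values for the difference of the diet effect between the sexes. The sequences are from RefSeq for the rat build GRCr8 and are written 5′ to 3′ on the gene's own strand. Capitals mark a motif match, and stretches without capitals hold none.
Insr, chr12:6128804-6129053, minus strand: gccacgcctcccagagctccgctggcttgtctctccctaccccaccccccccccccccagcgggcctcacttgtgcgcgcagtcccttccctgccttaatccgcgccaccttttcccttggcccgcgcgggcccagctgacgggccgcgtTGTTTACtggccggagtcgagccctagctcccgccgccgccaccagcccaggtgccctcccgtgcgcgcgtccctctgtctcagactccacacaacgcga
Igf1, chr7:24172282-24172531, plus strand: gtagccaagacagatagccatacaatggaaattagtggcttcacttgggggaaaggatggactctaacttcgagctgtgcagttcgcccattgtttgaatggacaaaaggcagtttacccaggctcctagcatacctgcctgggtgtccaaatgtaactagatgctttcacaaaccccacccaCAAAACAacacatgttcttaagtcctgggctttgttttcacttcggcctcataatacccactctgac
Ddit4, chr20:28437038-28437287, minus strand: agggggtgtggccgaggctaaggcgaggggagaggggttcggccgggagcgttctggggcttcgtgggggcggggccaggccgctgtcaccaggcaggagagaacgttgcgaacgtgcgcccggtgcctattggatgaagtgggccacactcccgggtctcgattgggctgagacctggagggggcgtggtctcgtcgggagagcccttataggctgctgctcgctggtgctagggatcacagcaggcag
Pdk4, chr4:34568330-34568579, minus strand: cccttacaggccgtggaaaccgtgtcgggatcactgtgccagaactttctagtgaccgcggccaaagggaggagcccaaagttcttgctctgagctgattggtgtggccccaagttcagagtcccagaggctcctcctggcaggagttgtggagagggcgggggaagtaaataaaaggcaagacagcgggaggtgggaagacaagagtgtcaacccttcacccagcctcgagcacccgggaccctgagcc

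The motifs searched were GTAAACA, the core bound by FOXO and other forkhead factors, and CAAAACA, the core of the insulin response sequence, on both strands (TGTTTAC and TGTTTTG). The window searched was 300 bases, from 250 before to 50 after the start. Of the 10 members, 8 had a promoter in the table and Irs2 and Foxo3 had none. GTAAACA or its complement was found in 1 of these 8, Insr, where the match begins 100 bases before the start. CAAAACA or its complement was found in Igf1, beginning 67 bases before the start. Among 20 other listed FOXO target genes with a promoter, Pik3ip1, Bcl2l11 and Trim63 held the GTAAACA motif and Ccng2, Igfbp1 and Sgk1 held the CAAAACA motif. Sgk1 had 3 promoters, of which 1 held CAAAACA, and was counted once. Of all 33469 rat promoters in the table, 3.78% held GTAAACA and 6.28% held CAAAACA. These are shares of promoters, while the counts above are of genes. A match is a string of letters in a window and does not show binding.

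Total counts were 13.9 to 31.4 M per library (M, 1000000 counts; median 17.8 M), and the least different pair of libraries within a group had a chi-square of 2.94 per gene, above sampling noise. The rows that check the labels separated the groups: App was at 3137 to 3398 CPM (counts per 1000000, after scaling by TMM) in the 15 alzheimer libraries and at 1548 to 1782 CPM in the 15 wildtype libraries, and an X-inactivation transcript and a Y-linked gene separated the sexes. Summed neuronal markers were at 8141 to 9091 CPM, astrocyte markers at 5011 to 6074 CPM and CA1 pyramidal neuron markers at 784.9 to 1241 CPM, while choroid plexus markers were at 3.37 to 66.0 CPM, with 3 libraries highest (male_alzheimer_chow replicate 30, female_wildtype_chow replicate 20 and female_alzheimer_western replicate 11). In bulk tissue, fewer cells of a type and less RNA per cell cannot be told apart. In the GRCr8 gene table Insr, Igf1r and Akt2 overlap other genes, and the labels do not state whether the counting used strand.

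The members differed in how deeply they were counted. Igf1, which encodes the IGF1 ligand, had 47 to 116 counts per library and Irs1 had 103 to 294, while Irs2 had 1461 to 3335 and Akt1 had 2174 to 4926. Variation between libraries beyond counting error was widest for Igf1, with a biological coefficient of variation of 15.3%, and lowest for Akt1 at 4.59% and Irs2 at 4.65%. The remaining 7 members lay between 6.62% and 10.3%. Across all 30 libraries the highest CPM was 2.20 times the lowest for Igf1, 1.85 times for Irs1, 1.67 times for Igf1r and 1.27 times for Akt1. No member differed between cohort 2 and cohort 1, with adjusted p between 0.560 and 0.997.

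**Figure D1:**
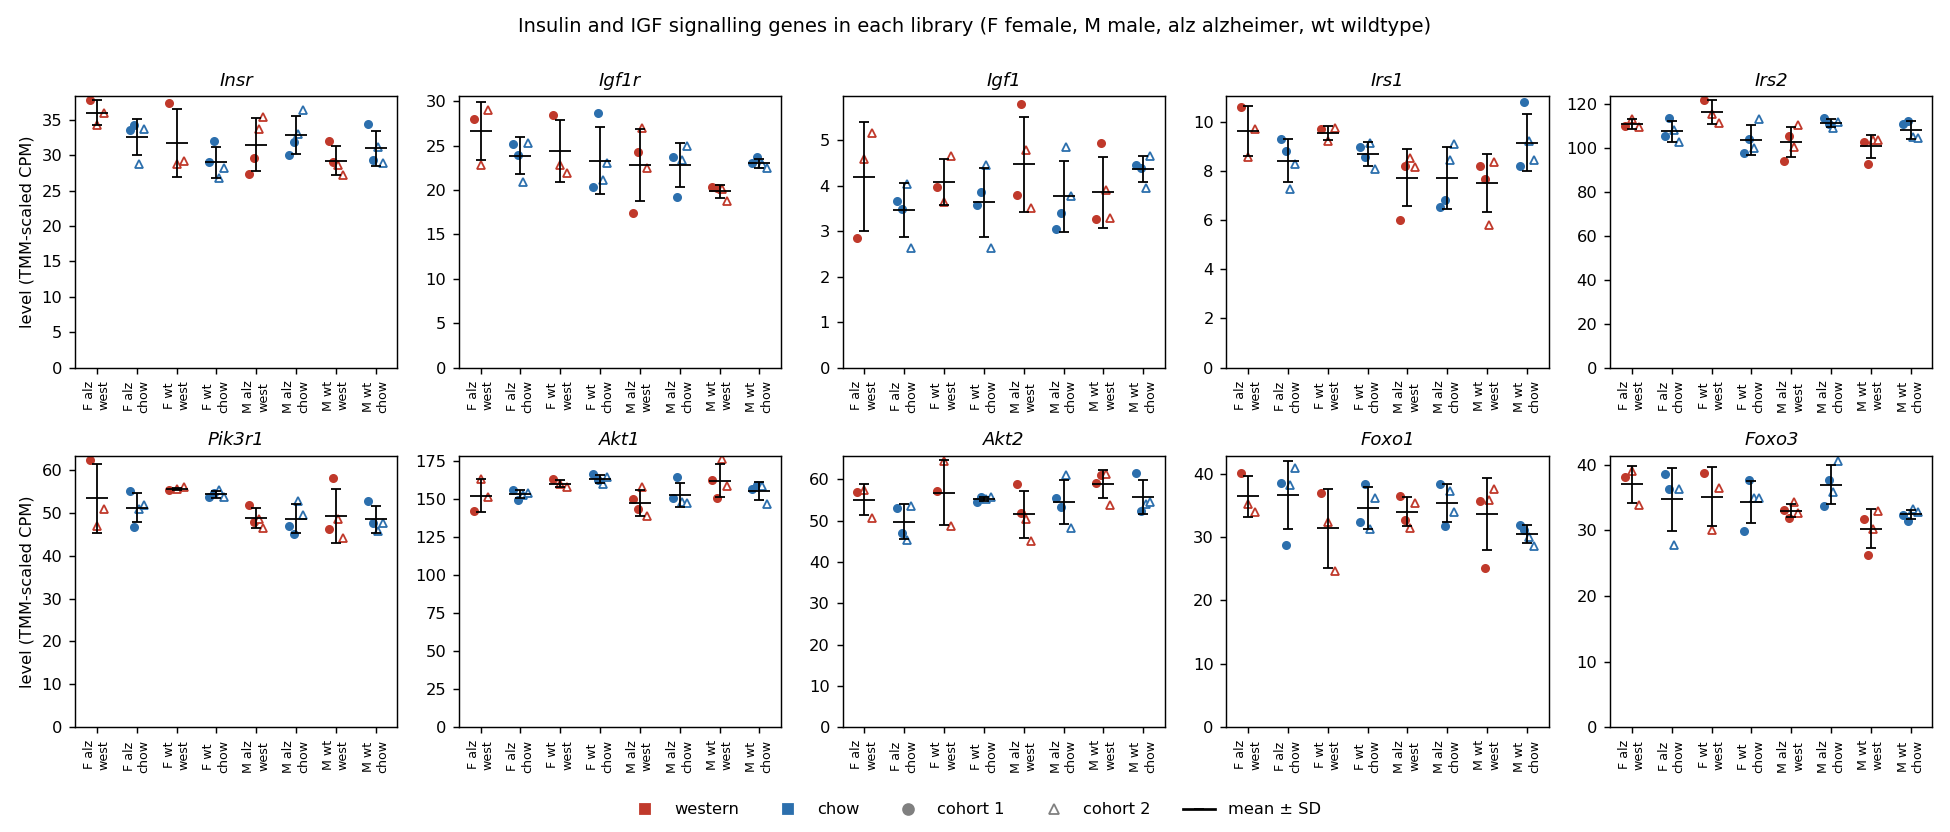
Level of each of the 10 genes in every library (vertical axis, CPM after TMM scaling, from 0) for the 8 groups along the horizontal axis. Red marks western and blue chow, circles cohort 1 and triangles cohort 2, and black bars give the mean ± SD of 3 or 4 libraries. The highest and the lowest group, picked by their values, overlap for Igf1 and Foxo1 and do not for the other 8 genes. The share of all genes without such overlap was not worked out, so this count does not set the members apart. Irs2 stays between 92.8 and 122.0 CPM.

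Over the 8 groups the 10 genes moved little, as the plot of levels by group shows. The ratio of the highest to the lowest group mean was 1.11 for Akt1, 1.15 for Pik3r1, 1.16 for Irs2 and 1.34 for Igf1r, with the other 6 members between 1.18 and 1.29. Female_alzheimer_western had the highest group mean for 4 members (Insr, Igf1r, Irs1 and Foxo3), and male_wildtype_western had the lowest for 4 (Igf1r, Irs1, Irs2 and Foxo3). Insr, the insulin receptor, was at 36.0 ± 1.74 CPM in female_alzheimer_western (SD, n = 3) and at 29.01 ± 2.19 CPM in female_wildtype_chow (SD, n = 4), its lowest group. Those libraries did not overlap, whereas the highest and lowest groups overlapped for Igf1 and Foxo1. These groups were picked by their values, so no test is given for them.

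On the western diet as a whole, none of the 10 genes differed from chow. Of the 12547 genes tested, 1 gene (0.00797%) was called for diet, meaning that its Benjamini-Hochberg adjusted p from edgeR's quasi-likelihood test was under 0.05, and 0 of the 10 members were. No member reached an unadjusted p under 0.05 either, where 5.55% of all genes did, and DESeq2 and limma-voom also called 0 members. Member log2 fold changes, western over chow, ran between -0.04 and 0.13 with a median of 0.0081, against a median of -0.00064 over all genes tested. The 95% intervals of all 10 lay between -0.13 and 0.34.

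By role, the ligand Igf1 was at 2.86, 3.93 and 5.81 CPM (lowest, median and highest) in 14 western libraries, against 2.63, 3.82 and 4.86 CPM in 16 chow libraries. The ranges overlapped almost completely, and the log2 fold change was 0.13 ± 0.10 (standard error), adjusted p = 0.955. Insr was at 27.2, 30.8 and 37.8 CPM in western libraries and at 26.8, 31.6 and 36.4 CPM in chow libraries. Igf1r, the IGF1 receptor, was at 17.4, 22.6 and 28.99 CPM in western libraries and at 19.2, 23.2 and 28.7 CPM in chow libraries. Both receptors overlapped across their ranges, with log2 fold changes of 0.04 ± 0.044 for Insr and 0.0036 ± 0.058 for Igf1r.

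The adaptor Irs1 was at 5.82, 8.44 and 10.6 CPM in western libraries and at 6.52, 8.51 and 10.8 CPM in chow libraries. Irs2 was at 92.8, 107.5 and 122.0 CPM in western libraries and at 97.7, 108.4 and 113.8 CPM in chow libraries. The western libraries of Irs2 reached both lower and higher than the chow libraries, and its SD was 8.01 CPM in western and 5.03 CPM in chow libraries. Its log2 fold change was -0.0019 ± 0.026, adjusted p = 0.998. Pik3r1 was at 44.0, 49.8 and 62.3 CPM in western libraries and at 45.1, 51.5 and 55.4 CPM in chow libraries, a difference of 0.03 ± 0.038 on the log2 scale.

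Downstream, Akt1 averaged 155.2 ± 10.1 CPM in western and 155.8 ± 6.47 CPM in chow libraries (SD, n = 14 and 16). Akt2, the isoform best known for insulin-stimulated glucose uptake, averaged 55.5 ± 5.54 CPM in western and 53.8 ± 4.34 CPM in chow libraries. The transcription factor genes were as close, Foxo1 at 33.8 ± 4.38 CPM in western and 34.2 ± 3.97 CPM in chow libraries and Foxo3 at 33.6 ± 3.64 CPM in western and 34.6 ± 3.34 CPM in chow libraries. Every adjusted p for diet was between 0.954 and 0.9997.

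Split by sex, the western diet again left every member uncalled, 0 of 10 in females and 0 of 10 in males. The background was 0.183% of genes called in females (0.12% higher, 0.0638% lower) and 0.128% in males (0.0478% higher, 0.0797% lower). In females 8 of 10 members had a positive log2 fold change and the median was 0.10, against -0.0034 over all genes. In males 4 of 10 were positive and the median was -0.03, against -0.00058 over all genes. Unadjusted p was under 0.05 for Insr and Irs2 in females and for Foxo3 and Irs2 in males, against 9.56% of all genes in females and 11% in males. DESeq2 and limma-voom called 0 members in either sex.

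The difference of the diet effect between the sexes, females minus males, was called for 1 of the 10 members, Irs2, where 1.23% of all genes were called (0.781% higher, 0.446% lower). Unadjusted p was under 0.05 for 4 members (Irs2, Insr, Irs1 and Foxo3), as it was for 14.7% of all genes. The members' median difference was 0.19, with 8 of 10 positive, against -0.0044 over all genes tested.

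**Figure D2:**
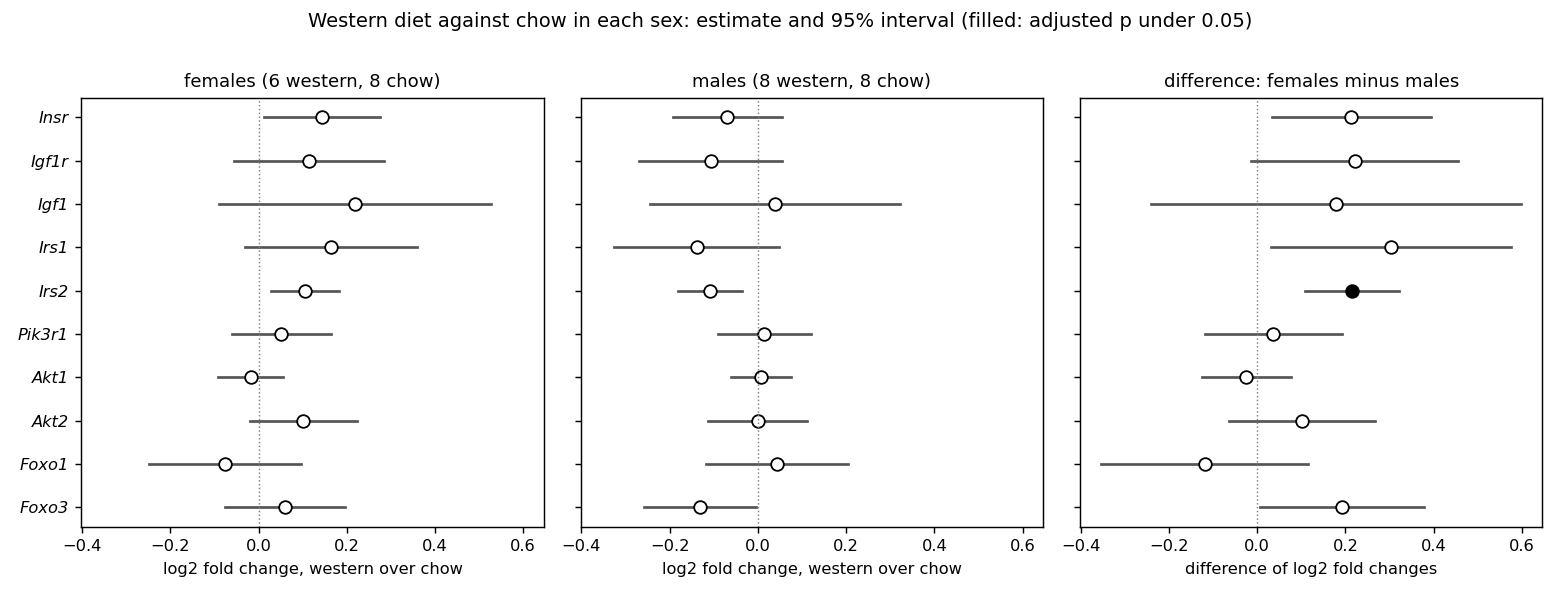
Log2 fold change of western over chow for each member in females (left), in males (middle) and the difference of the 2, females minus males (right), with 95% intervals from edgeR. The filled point, Irs2 in the right panel at 0.21, is the only member called, and the Irs2 estimates lie at 0.11 in females and -0.11 in males.

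Irs2, an adaptor that carries the signal of both receptors and is itself a FOXO target, had these CPM values in each library. In females it was at 110.1, 113.3 and 109.3 CPM in alzheimer western libraries and at 122.0, 115.3 and 111.5 CPM in wildtype western libraries. The chow libraries of females were at 105.4, 113.8, 108.0 and 102.7 CPM in alzheimer and at 97.7, 104.2, 99.9 and 113.2 CPM in wildtype. All 6 female western libraries were above the mean of the chow libraries of their own genotype, and the ranges overlapped.

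In males Irs2 was at 94.2, 105.6, 100.3 and 110.5 CPM in alzheimer western libraries and at 102.7, 92.8, 103.6 and 103.6 CPM in wildtype western libraries. The chow libraries of males were at 113.4, 110.9, 108.9 and 111.6 CPM in alzheimer and at 110.9, 112.1, 105.1 and 104.3 CPM in wildtype. All 8 male western libraries were below the mean of the chow libraries of their own genotype. The ranges overlapped in alzheimer males, through the library at 110.5 CPM, and did not overlap in wildtype males.

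The Irs2 log2 fold change was 0.11 ± 0.038 in females (adjusted p = 0.340) and -0.11 ± 0.036 in males (adjusted p = 0.210), neither of which was called. The difference was 0.21 ± 0.052 (standard error), adjusted p = 0.0292 by edgeR's quasi-likelihood test. Irs2 levels averaged 113.6 ± 4.65 CPM in female western, 105.6 ± 5.82 CPM in female chow, 101.7 ± 5.83 CPM in male western and 109.6 ± 3.32 CPM in male chow libraries (SD, n = 6, 8, 8 and 8). In order, the 8 group means ran from female_wildtype_western (116.3 ± 5.30 CPM) and male_alzheimer_chow (111.2 ± 1.87) through female_alzheimer_western (110.9 ± 2.13), male_wildtype_chow (108.1 ± 3.97), female_alzheimer_chow (107.5 ± 4.77), female_wildtype_chow (103.7 ± 6.85) and male_alzheimer_western (102.7 ± 7.01) to male_wildtype_western (100.7 ± 5.25). Neighbours in that order differed by less than the larger of their SDs.

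The call for Irs2 rests on few libraries. It was 0.32 in cohort 1 (adjusted p = 0.143) and 0.13 in cohort 2 (adjusted p = 0.512), and it was lost without replicate 1, 4, 7, 9, 12, 15, 18 or 19, with adjusted p between 0.0509 and 0.0899 and a difference between 0.19 and 0.24. Cohort 1 holds 1 library in each female western group.

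No other member was called for the difference between sexes. Irs1 was at 8.57, 9.70 and 10.6 CPM (lowest, median and highest) in female western libraries and at 7.27, 8.70 and 9.29 CPM in female chow libraries. In males Irs1 was at 5.82, 8.17 and 8.53 CPM in western libraries and at 6.52, 8.44 and 10.8 CPM in chow libraries. All 6 female western libraries lay above the chow mean of their own genotype, and the ranges overlapped in both sexes. The difference was 0.30 ± 0.13, adjusted p = 0.277.

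For the receptors, Insr was at 28.7, 35.1 and 37.8 CPM in female western libraries, at 26.8, 30.5 and 34.3 CPM in female chow libraries, at 27.2, 29.3 and 35.4 CPM in male western libraries and at 28.9, 31.6 and 36.4 CPM in male chow libraries. Its groups overlapped, and the difference between sexes was 0.21 ± 0.089, adjusted p = 0.246. Igf1r gave 0.22 ± 0.12 (adjusted p = 0.374) and Foxo3 gave 0.19 ± 0.092 (adjusted p = 0.321). Of the 8 male western libraries, 7 had less Foxo3 than the mean of the chow libraries of their own genotype. Pik3r1 (0.04 ± 0.076), Akt1 (-0.02 ± 0.050), Akt2 (0.10 ± 0.081), Foxo1 (-0.12 ± 0.12) and Igf1 (0.18 ± 0.21) had intervals that included 0. So did Igf1r, with a 95% interval from -0.01 to 0.46.

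The genes whose pattern was most like that of Irs2 were Nfkbia, Tob2 and Zfhx2. Likeness was Pearson's r of log2 CPM over the 30 libraries, each set relative to its cohort's mean, among 11060 genes, and it is a description, since the libraries share their groups. Nfkbia, which encodes the NF-kappa-B inhibitor alpha, had r = 0.80 (Spearman's rho 0.69). Tob2, which encodes an antiproliferative protein, had r = 0.78 (rho 0.71), and Zfhx2, a zinc finger homeobox gene, had r = 0.74 (rho 0.75). Their own differences between the sexes, females minus males, were 1.04, 0.55 and 0.50 on the log2 scale.

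The rest of the pathway was taken from 10 lists with 106 genes, the members included, of which 100 had a row and 91 were tested. The lists were chosen with earlier results of these data known, so their shares beside those of all genes are descriptions. For diet as a whole 0 of 91 were called, where 0.00797% of all genes were, and 7 (7.69%) had an unadjusted p under 0.05, where 5.55% of all genes did. Their median log2 fold change was -0.0019, against -0.00064 over all genes tested. In males 4 were called lower on the western diet (Cdkn1a, Sgk1, Ddit4 and Pdk4) and 0 higher, 4.40% of the 91 where 0.128% of all genes were called. In females 3 were called higher (Ddit4, Pdk4 and Eif4ebp2) and 0 lower, 3.30% where 0.183% of all genes were called. The difference between the sexes was called for 9 genes, 8 higher and 1 lower (9.89%, where 1.23% of all genes were called), and all 9 are in the list of FOXO targets.

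Outside the FOXO and mTORC1 lists, diet called nothing among ligands and IGF binding proteins (8 tested), receptors (3) and PI3-kinase subunits (6). Nor did it among lipid phosphatases and other brakes (18), Akt activation (8) and GSK3 and glucose transport (6). This held for diet as a whole and in each sex. The difference between the sexes was called for Irs2 alone among 10 receptor adaptors. In the PI3-kinase list the smallest p-values for diet were those of Pik3ca, the catalytic p110 alpha subunit (0.05 ± 0.023, adjusted p = 0.870), and Pik3r3, the regulatory p55 gamma subunit (-0.10 ± 0.059, adjusted p = 0.920). Among glucose transporters they were those of Slc2a1, which encodes GLUT1 (-0.07 ± 0.045), and Slc2a4, which encodes the insulin-responsive GLUT4 (-0.13 ± 0.13).

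Of 27 listed FOXO targets, 23 were tested, Insr and Irs2 among them. Diet as a whole called 0 of 23, and 0 had an unadjusted p under 0.05. The difference between the sexes was called for 9 of 23, with 12 at an unadjusted p under 0.05, where 1.23% and 14.7% of all genes were. Because this list was chosen with earlier results of these data known, these shares are not a test of the list. DESeq2 and limma-voom also called 9 each. The list's median difference was 0.12, against -0.0044 over all genes tested. The list mixes genes with other regulators: Sgk1 is named for its induction by serum and glucocorticoids, and Cdkn1a is a classic p53 target.

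Ddit4, which encodes the mTORC1 inhibitor REDD1, was at 124.2, 136.0 and 154.7 CPM in female western libraries and at 74.2, 96.3 and 119.0 CPM in female chow libraries. In males it was at 74.2, 94.9 and 135.2 CPM in western libraries and at 115.7, 145.2 and 169.6 CPM in chow libraries. The diet groups did not overlap in females and overlapped in males, where all 8 western libraries lay below the chow mean of their own genotype. The log2 fold change was 0.54 ± 0.10 in females (adjusted p = 0.0240) and -0.60 ± 0.096 in males (adjusted p = 0.00230), and the difference was 1.14 ± 0.14 (adjusted p = 1.37e-05).

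Pdk4, a mitochondrial kinase that restrains pyruvate oxidation, was at 5.43, 6.28 and 10.9 CPM in female western libraries and at 1.55, 3.37 and 4.44 CPM in female chow libraries. In males it was at 1.41, 2.51 and 4.08 CPM in western libraries and at 2.90, 7.23 and 11.5 CPM in chow libraries. It was a low gene, with 25 to 192 counts per library, whose diet groups did not overlap in females and overlapped in males. The log2 fold change was 1.17 ± 0.24 in females (adjusted p = 0.0346) and -1.49 ± 0.23 in males (adjusted p = 0.00153). Its difference of 2.66 ± 0.33 had an adjusted p of 1.37e-05.

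Sgk1, a kinase related to AKT, averaged 214.1 ± 37.5 CPM in female western and 135.3 ± 47.4 CPM in female chow libraries, and 117.8 ± 33.9 CPM in male western and 220.9 ± 57.4 CPM in male chow libraries (SD, n = 6, 8, 8 and 8). The ranges overlapped in both sexes, and every western library lay above its chow mean in females and below it in males. Sgk1 fell in males (-0.92 ± 0.16, adjusted p = 0.00345) and was at 0.69 ± 0.17 in females (adjusted p = 0.0791). Cdkn1a, the cell cycle inhibitor p21, averaged 9.50 ± 2.02 CPM in female western and 6.78 ± 1.42 CPM in female chow libraries, and 5.85 ± 0.903 CPM in male western and 9.92 ± 2.76 CPM in male chow libraries. It fell in males (-0.76 ± 0.14, adjusted p = 0.0100) and was at 0.49 ± 0.15 in females (adjusted p = 0.207). By genotype, Cdkn1a averaged 10.9 CPM in western and 5.85 CPM in chow libraries of wildtype females, but 8.05 and 7.70 CPM in alzheimer females. In males it averaged 6.08 and 9.83 CPM in wildtype and 5.62 and 10.02 CPM in alzheimer libraries.

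**Figure D3:**
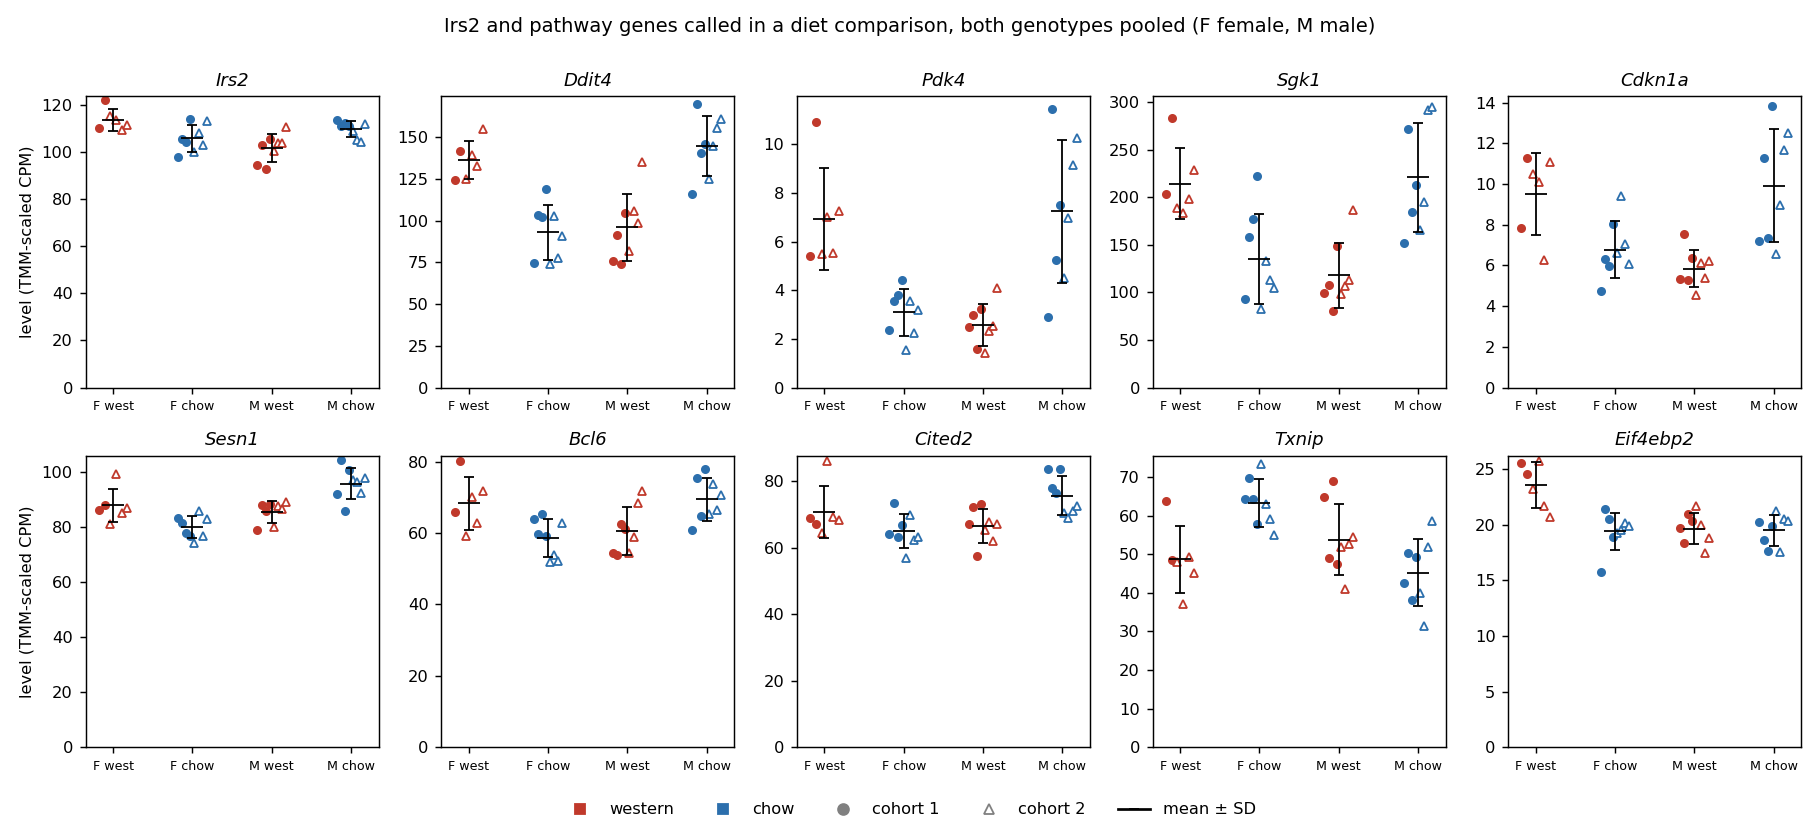
Level of Irs2 and of the 9 other pathway genes called in a diet comparison in every library (vertical axis, CPM after TMM scaling, from 0), in female western, female chow, male western and male chow libraries, both genotypes pooled. Bars give the mean ± SD of 6, 8, 8 and 8 libraries. Ddit4 and Pdk4 do not overlap between the diets in females, while the diets overlap for Irs2 in either sex.

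A smaller difference between the sexes was called for Bcl6 (0.42 ± 0.095), a transcriptional repressor, for Cited2 (0.32 ± 0.072), a CBP/p300 binding protein, and for Sesn1 (0.30 ± 0.060), a stress-induced inhibitor of mTORC1. None of these was called within either sex. Txnip, which binds thioredoxin and limits glucose uptake, went the other way, at 48.7 ± 8.68 CPM in female western and 63.3 ± 6.14 CPM in female chow libraries, and at 53.8 ± 9.12 CPM in male western and 45.3 ± 8.79 CPM in male chow libraries. Its difference was -0.61 ± 0.15, adjusted p = 0.0296. Outside the FOXO targets, Eif4ebp2, the main 4E-BP of brain, which represses translation until mTORC1 phosphorylates it, rose in females, to 23.6 ± 2.07 CPM in western against 19.4 ± 1.67 CPM in chow libraries (0.28 ± 0.062, adjusted p = 0.0480). All 6 female western libraries lay above the chow mean of their own genotype, and its difference between the sexes was not called (0.27 ± 0.086, adjusted p = 0.120).

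**Figure D4:**
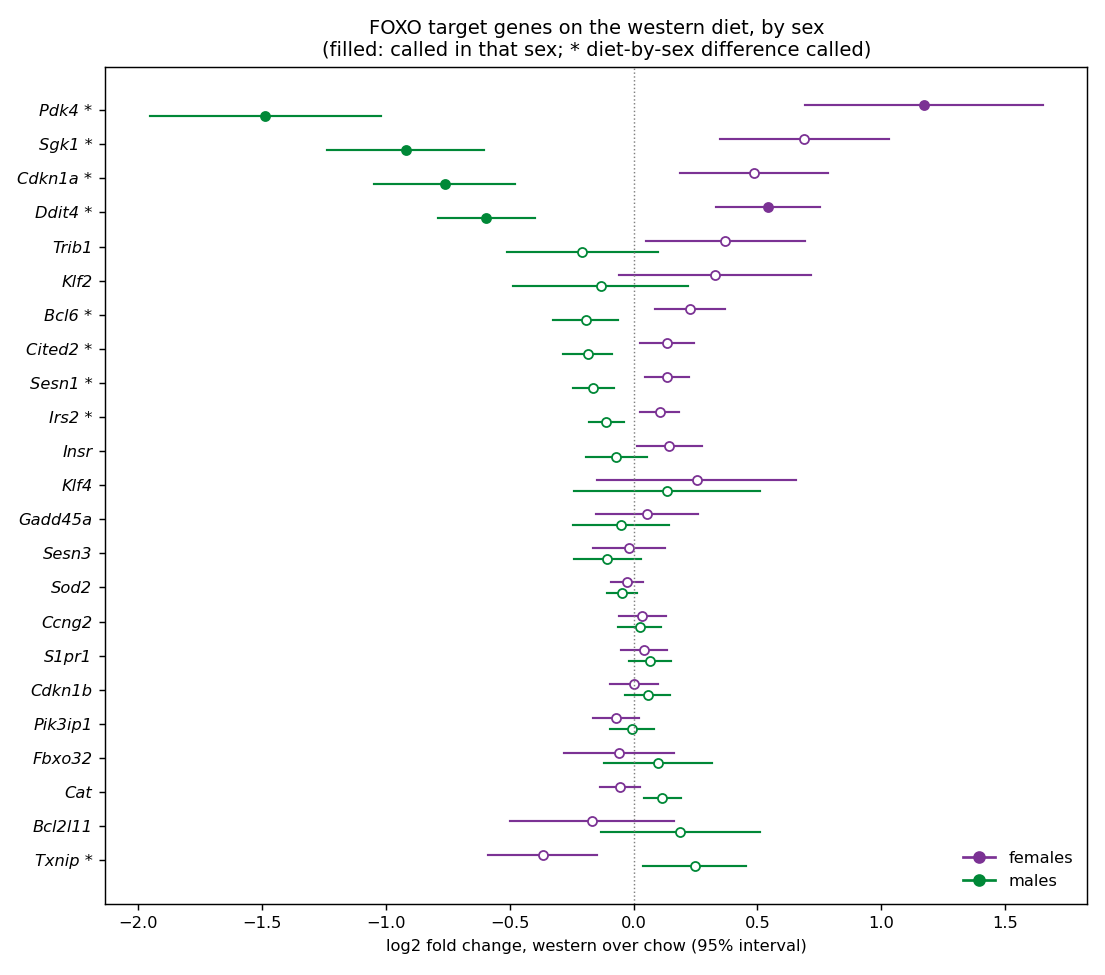
Log2 fold change of western over chow in females (purple) and males (green) for the 23 tested FOXO targets, with 95% intervals, ordered by the difference between the sexes. Filled points were called within that sex and stars mark a called difference. Pdk4, Sgk1, Cdkn1a and Ddit4 at the top are positive in females and negative in males, Txnip at the bottom is the reverse, and genes such as Sod2, Ccng2 and Cdkn1b lie near 0 in both sexes.

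Within single cohorts the difference between the sexes stayed called for Ddit4, Pdk4 and Sgk1 in each cohort, and 3 FOXO targets were called in cohort 1 and 3 in cohort 2. Among single libraries, the call for Bcl6 was lost without replicate 12 (adjusted p = 0.0620) and that for Txnip without replicate 1, 5, 7, 12, 15, 16 or 18 (adjusted p up to 0.0685). In females the call for Ddit4 was lost without replicate 9, 12, 15, 18, 19 or 22 (adjusted p up to 0.116) and that for Pdk4 without replicate 9, 10, 12, 15, 18, 19, 21 or 22 (adjusted p up to 0.185). The call for Eif4ebp2 held only without replicate 7, 13, 20, 21, 23, 26, 28 or 29, and was lost in limma-voom (adjusted p = 0.0922), without the cohort term (0.0553), in females fitted alone (0.0700), in each cohort alone, and without the 3 libraries highest in choroid plexus markers (0.108). The 4 calls in males held without any single library, but in cohort 1 alone Ddit4 was the 1 gene of the 4 still called (adjusted p = 0.0232), and in cohort 2 alone none was (adjusted p 0.244 to 0.343).

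Cell type markers had these values in the same contrast, where 1.23% of all genes were called and 14.7% had an unadjusted p under 0.05. Unadjusted edgeR p was under 0.05 for 8 of 10 microglial, 5 of 9 endothelial, 4 of 10 astrocyte and 3 of 10 oligodendrocyte markers. It was so for 2 of 8 neuronal, 1 of 6 oligodendrocyte precursor, 1 of 10 mural and fibroblast and 0 of 6 ependymal markers. Astrocyte markers ran from -0.18 to 0.33 (median -0.01, 0 called). For the difference between the sexes all 10 oligodendrocyte markers were negative (median -0.21, 0 called), as were all 9 tested endothelial markers (median -0.20, Cldn5 called lower) and 9 of 10 microglial markers (median -0.17, P2ry12 called lower), while neuronal markers had a median of 0.06 with 0 of 8 called and oligodendrocyte precursor markers one of 0.09 with Olig2 called higher. All 6 tested ependymal markers were negative (median -0.31, 0 called), as were 9 of 10 mural and fibroblast markers (median -0.18, 0 called). The summed oligodendrocyte markers were at 8400 to 13786 CPM in female western, 10952 to 14524 in female chow, 9851 to 15137 in male western and 8487 to 13926 CPM in male chow libraries. Summed endothelial markers were at 299.8 to 393.9 CPM in female western, 352.1 to 408.3 in female chow, 328.9 to 424.0 in male western and 302.9 to 376.9 CPM in male chow libraries. Summed microglial markers were at 449.3 to 519.1 CPM in female western, 462.5 to 538.2 in female chow, 436.8 to 511.7 in male western and 395.2 to 480.4 CPM in male chow libraries. Summed ependymal markers were at 21.03 to 32.3 CPM in female western, 28.5 to 35.1 in female chow, 19.7 to 36.7 in male western and 22.3 to 33.0 CPM in male chow libraries. Summed mural and fibroblast markers were at 128.4 to 176.0 CPM in female western, 143.7 to 170.0 in female chow, 119.7 to 164.4 in male western and 119.0 to 158.3 CPM in male chow libraries. The sums overlapped between all 4 groups, Col1a2 was the only one of these markers at 0 in every library, and their part in the differences of Irs2 and the FOXO targets was not tested. Without the 3 libraries highest in choroid plexus markers the Irs2 difference was 0.25 (adjusted p = 0.0184).

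No member was called for diet within a genotype. In rats labelled alzheimer 0 of 10 members and 0 of 12547 genes were called for diet (0%), and the same counts held in wildtype rats and for the difference between the genotypes. Unadjusted p was under 0.05 for 0 members in all 3 comparisons, against 3.89% of all genes in alzheimer, 5.2% in wildtype and 3.55% for the difference, and DESeq2 and limma-voom called 0 members. The largest member value was that of Igf1, at 0.27 ± 0.14 in alzheimer and -0.0083 ± 0.15 in wildtype libraries, a difference of 0.27 ± 0.20 whose 95% interval ran from -0.14 to 0.69. In alzheimer males Igf1 was at 4.47 ± 1.04 CPM on the western diet and at 3.77 ± 0.780 CPM on chow (SD, n = 4 each). Its means were 4.20 and 3.46 CPM in alzheimer females and 4.08 and 3.63 CPM in wildtype females. In wildtype males they went the other way, at 3.85 CPM on the western diet and 4.36 CPM on chow. The intervals of the other 9 members for the difference between the genotypes lay between -0.27 and 0.44.

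Genotype called 1 of the 10 members, Akt1, where 8.03% of all genes were called (4.14% higher, 3.89% lower). Unadjusted p was under 0.05 for 5 members (Akt1, Akt2, Foxo1, Foxo3 and Insr), as it was for 22.3% of all genes. Akt1 was at 138.4, 150.3 and 164.0 CPM (lowest, median and highest) in 15 alzheimer libraries, against 146.3, 159.5 and 176.2 CPM in 15 wildtype libraries. The ranges overlapped, and 13 of 15 alzheimer libraries were below the mean of the wildtype libraries of their own sex and diet. The log2 fold change was -0.08 ± 0.025, adjusted p = 0.0347, a level 0.945 times that of wildtype.

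Akt1 was at -0.10 in cohort 1 (adjusted p = 0.274) and at -0.08 in cohort 2 (adjusted p = 0.202), at -0.07 without the 3 libraries highest in choroid plexus markers (adjusted p = 0.135), and its call was lost without replicate 3, 4, 6, 9, 11, 12, 14, 21, 24, 28 or 30 (adjusted p up to 0.0853). Summed choroid plexus markers were at 3.44 to 66.0 CPM in alzheimer libraries, against 3.37 to 39.1 CPM in wildtype libraries, with Otx2 and Prlr under 1 CPM in every library. Their part in the Akt1 result was not tested.

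Insr missed the threshold, at 27.3, 33.6 and 37.8 CPM in alzheimer libraries against 26.8, 29.1 and 37.3 CPM in wildtype libraries. Of the 15 alzheimer libraries, 12 were above the wildtype mean of their own sex and diet, with a log2 fold change of 0.13 ± 0.044 and an adjusted p of 0.0535. It was called by DESeq2 (adjusted p = 0.0381) and limma-voom (adjusted p = 0.0413). It was at 0.0030 in cohort 1 (adjusted p = 0.993) and at 0.24 in cohort 2 (adjusted p = 0.00597), and it was called without replicate 1, 2, 3, 4, 6, 8, 12, 13 or 16.

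The remaining members were not called for genotype. Akt2 averaged 52.6 ± 4.93 CPM in alzheimer libraries, against 56.6 ± 4.16 CPM in wildtype libraries (-0.10 ± 0.040, adjusted p = 0.116), and it was called without replicate 22 or 25. Foxo1 averaged 35.5 ± 3.44 CPM in alzheimer libraries, against 32.6 ± 4.27 CPM in wildtype libraries (0.13 ± 0.058, adjusted p = 0.155). Foxo3 averaged 35.3 ± 3.33 CPM in alzheimer libraries, against 32.9 ± 3.28 CPM in wildtype libraries (0.10 ± 0.046, adjusted p = 0.173), and 13 of 15 alzheimer libraries lay above their wildtype mean. Both Akt genes had negative and both Foxo genes positive values, and the members' median was 0.0039, against 0.0020 over all genes tested.

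**Figure D5:**
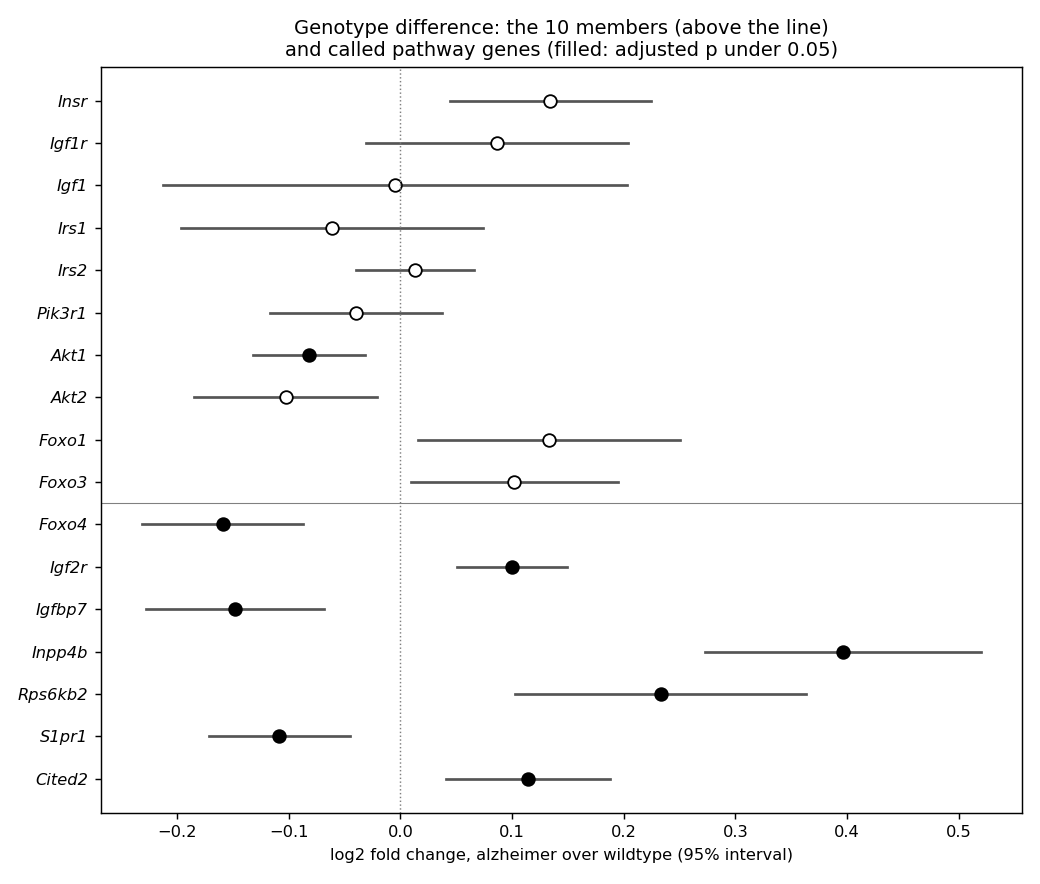
Log2 fold change of alzheimer over wildtype for the 10 members (above the line) and for the other pathway genes called for genotype (below it), with 95% intervals from edgeR and 15 libraries per genotype. Filled points were called. Akt1 is the only filled member at -0.08, and Inpp4b at 0.40 is the farthest from 0.

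Of the 91 tested pathway genes, genotype called 4 higher and 4 lower, Akt1 included, with a median of 0.01. That was 8.79% of them, near the 8.03% of all genes called for genotype, so the count does not set the pathway apart and the values below describe single genes. Inpp4b, a phosphatase that removes a phosphate from PI3-kinase lipid products, rose to 9.35, 10.4 and 12.7 CPM in alzheimer libraries, against 6.64, 8.16 and 9.57 CPM in wildtype libraries (0.40 ± 0.061, adjusted p = 4.08e-05). Its ranges overlapped slightly, and all 15 alzheimer libraries were above their wildtype mean. Foxo4, a further FOXO factor, fell to 50.5 ± 2.97 CPM in alzheimer against 56.3 ± 4.61 CPM in wildtype libraries (-0.16 ± 0.035, adjusted p = 0.00362), and 14 of 15 alzheimer libraries were below their wildtype mean. Foxo4 thus ran opposite in sign to Foxo1 and Foxo3.

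Higher values were also called for Igf2r, the scavenger receptor of IGF2 (0.10 ± 0.024, adjusted p = 0.00810), for Rps6kb2, the S6 kinase 2 downstream of mTORC1 (0.23 ± 0.064, adjusted p = 0.0190), and for Cited2 (0.11 ± 0.036, adjusted p = 0.0440). Lower values were called for Igfbp7, a secreted IGF binding protein of blood vessels (-0.15 ± 0.039, adjusted p = 0.0149), and for S1pr1, a sphingosine-1-phosphate receptor (-0.11 ± 0.031, adjusted p = 0.0257). In cohort 1 alone none of these 7 genes was called and in cohort 2 alone all but Cited2 were. The call for Cited2 was lost without 17 single libraries (replicates 3, 5, 6, 8, 9, 10, 12, 13, 15, 16, 17, 18, 23, 26, 27, 28 and 29), and those for Rps6kb2 and S1pr1 without the 3 libraries highest in choroid plexus markers (adjusted p = 0.0985 for Rps6kb2 and 0.0864 for S1pr1). Igfbp7 overlaps Polr2b, which also has a row. In females Igf2r averaged 112.3 CPM in alzheimer against 96.1 CPM in wildtype western libraries, and 104.4 against 94.6 CPM in chow libraries. In males it averaged 103.4 against 98.1 CPM in western libraries, but 102.1 against 105.2 CPM in chow libraries, where the direction was reversed.

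Markers were called for genotype too, where 8.03% of all genes were (4.14% higher, 3.89% lower). Of 6 CA1 pyramidal neuron markers 2 were called lower in alzheimer libraries (Wfs1 and Pou3f1, median -0.15), and of 5 CA3 markers 2 higher (Nptx1 and Prss35, median 0.03). C1ql2 of the dentate gyrus markers and Mbp of the oligodendrocyte markers were called lower, with 9 of 10 oligodendrocyte markers negative (median -0.05), and Syt1 of the neuronal and Tnr of the oligodendrocyte precursor markers were called higher. All 6 tested ependymal markers were negative (median -0.22, 0 called). Of 10 microglial markers 5 were called lower in alzheimer libraries (median -0.07), of 10 astrocyte markers 1 was called higher and 3 lower (median -0.05), of 9 endothelial markers 2 lower (Cldn5 and Flt1, median -0.08) and of 10 mural and fibroblast markers 2 lower (Rgs5 and Abcc9, median -0.09). Summed astrocyte markers were at 5195 to 6074 CPM in alzheimer libraries, against 5011 to 6042 CPM in wildtype libraries, and mural and fibroblast markers had a median sum of 143.8 CPM in alzheimer libraries, against 155.9 CPM in wildtype libraries. Summed endothelial markers were at 299.8 to 389.7 CPM in alzheimer libraries, against 302.9 to 424.0 CPM in wildtype libraries, and summed microglial markers at 395.2 to 482.3 CPM in alzheimer libraries, against 422.2 to 538.2 CPM in wildtype libraries. Summed CA1 markers were at 784.9 to 1241 CPM in alzheimer libraries, against 864.8 to 1174 CPM in wildtype libraries, and summed ependymal markers at 19.7 to 35.1 CPM in alzheimer libraries, against 22.3 to 36.7 CPM in wildtype libraries. Their part in the values of Akt1, Igfbp7 and S1pr1 was not tested.

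Between the sexes 0 of 10 members were called, with 4 at an unadjusted p under 0.05 (Pik3r1, Irs1, Igf1r and Foxo3), where 0.837% (0.518% higher, 0.319% lower) and 14.8% of all genes were. Pik3r1 was closest, at 46.7, 54.1 and 62.3 CPM in 14 female libraries against 44.0, 47.8 and 58.2 CPM in 16 male libraries (0.14 ± 0.038, adjusted p = 0.0635). Of the 14 female libraries, 12 were above the male mean of their own genotype and diet, and the ranges overlapped. DESeq2 and limma-voom called Pik3r1 (adjusted p = 0.0312 and 0.0438), and the edgeR test called it without replicate 4, 5, 14, 18 or 25. Among the other pathway genes Fbxo32, which encodes the ubiquitin ligase atrogin-1 and is named here after its values were seen, was higher in females (0.34 ± 0.076, adjusted p = 0.0265). It was the 1 gene called of the 91 tested pathway genes (1.10%), near the 0.837% of all genes, so the count does not set the pathway apart. The call for Fbxo32 was lost without replicate 10, 11, 17 or 27, in either cohort alone (adjusted p = 0.0792 in cohort 1 and 0.205 in cohort 2), when 2 surrogate variables were added (0.307) and without the 3 libraries highest in choroid plexus markers (0.136).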

How the data were processed

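The authors deposited raw gene counts for 30 libraries. Per the labels' protocols, RNA was extracted with a lipid tissue kit, polyA RNA was selected and libraries were made with a NEB Ultra II kit. The submitters' processing notes name cutadapt and STAR 2.7.0a. Which tool counted reads, against which build and gene models, and whether by strand, is not given in the sources used here. Total counts were 13.9 to 31.4 M (1000000 counts) per library.

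From these counts, genes were filtered with filterByExpr (minimum count 10, minimum total 15) and scaled by TMM. The 8 groups and cohort were fitted together with edgeR 4.0.16 in R 4.3.3 (quasi-likelihood test), with 9 contrasts and Benjamini-Hochberg adjustment over all 12547 genes. A gene was called at an adjusted p under 0.05. DESeq2 1.42.0, limma-voom (limma 3.58.1), surrogate variables (sva 3.50.0), other filters, single cohorts and left-out libraries were alternatives. The fit was tested on simulated data. Every member was named. Pathway genes were named where called in a diet or genotype contrast, or, in a list with none, as the 2 with the smallest p for diet. The 3 genes with the highest Pearson's r to each member called in a diet contrast were named too, and single markers where called in a contrast that called a member. The members and lists were chosen with earlier results of these data known.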

Additional observations from a re-analysis of the deposited data

Results flagged for a closer look

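Dixon's criterion was applied to 114 sets, each being the values of 1 gene in 1 group of 4 libraries. A library stood far from the other 3 in 7 of the 114 sets, and chance flags about 1 in 20. The sets reuse the same libraries across genes, so they are not independent. Insr was at 28.7 CPM in female_alzheimer_chow replicate 16, with the others at 33.5 to 34.3 CPM. Igf1r was at 18.8 CPM in male_wildtype_western replicate 27, with the others at 20.1 to 20.3 CPM. Irs1 was at 6.01 CPM in male_alzheimer_western replicate 1, with the others at 8.15 to 8.53 CPM. Male_wildtype_western replicate 5 was low for 3 genes: Irs2 was at 92.8 CPM against 102.7 to 103.6 CPM in the others, Foxo1 at 25.2 CPM against 35.7 to 37.6 CPM, and Sgk1 at 80.3 CPM against 107.2 to 112.7 CPM. Cited2 was at 56.7 CPM in female_wildtype_chow replicate 15, with the others at 63.1 to 64.1 CPM.

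The diet effect differed between females and males, by the test of the difference itself in edgeR, for Irs2 (0.215 on the log2 scale) and for 8 other FOXO target genes. The differences were 2.66 for Pdk4, 1.61 for Sgk1, 1.25 for Cdkn1a, 1.14 for Ddit4, 0.422 for Bcl6, 0.319 for Cited2, 0.298 for Sesn1 and -0.613 for Txnip.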

How the results depend on the processing

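No called value of a member or named pathway gene reversed in direction under the alternatives run, which did not cover the cell type markers. With no filter on low counts the counts of genes called were 71 for diet in males, 60 in females, 3 in alzheimer, 242 for the difference between the sexes and 254 for sex, with 4 FOXO targets in females, 2 members for genotype and 1 for sex. DESeq2 called 3 genes for diet, 62 in males, 56 in females, 3 in alzheimer, 268 for the difference between the sexes and 241 for sex, with 2 members for genotype and 1 for sex. Limma-voom called 205 genes for sex, 2 members for genotype and 1 for sex. Without the cohort term 11 genes were called for diet in females. With 2 surrogate variables 4 FOXO targets were called in females, 2 members for genotype and 21 genes for sex. With each sex fitted alone, females had 45 genes and 5 FOXO targets called. Cohort 1 alone gave 19 genes for diet, 38 in wildtype, 35 for the difference between the sexes, 12 for that between the genotypes and 72 for genotype, with 0 members for the sex difference and 0 for genotype, and 1, 0 and 3 FOXO targets in males, females and for their difference. Cohort 2 alone gave 0 genes for diet, 0 in males, 2 in females, 32 for the difference between the sexes, 573 for genotype and 17 for sex, with 0 members for the sex difference and 0, 0 and 3 FOXO targets in males, females and for their difference. Without the 3 libraries highest in choroid plexus markers, an alternative chosen after seeing the data, 0 genes were called for diet, 23 for sex and 0 members for genotype. The causes were not tested.

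Leaving out each library in turn, genes called ranged over 1 to 2 for diet, 9 to 53 in males, 1 to 36 in females, 0 to 3 in alzheimer, 79 to 249 for the difference between the sexes, 817 to 1270 for genotype and 19 to 181 for sex. Members called ranged over 0 to 1 for the difference between the sexes, 0 to 2 for genotype and 0 to 1 for sex, and FOXO targets over 4 to 5 in males, 0 to 3 in females and 6 to 9 for their difference. Counts of FOXO targets under all alternatives were also added after seeing the data. No paired analysis was possible because the replicate numbers run over 1 to 30 and each belongs to a single library. Igf1, with 47 counts in its lowest library, is the member most limited by depth.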
